A study of Mus musculus with 74 samples.

Results

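The genes described here are 10 transcription factor genes that guide the first cell-fate choice of the mouse embryo, 5 of them regulators of pluripotency (Pou5f1, Nanog, Sox2, Klf4 and Esrrb) and 5 regulators of the trophectoderm (Cdx2, Eomes, Elf5, Tfap2c and Tead4). They were chosen by name and not by any measured value, and they are 10 of 21938 protein-coding genes on the 21 chromosomes analysed. Each was described by the part of its locus, meaning the gene with 20 kb on each side, and of its promoter, meaning 1 kb on each side of the annotated 5′ end, that lay under H3K9me3 peaks. A gene was said to have a promoter peak, or a peak in its locus, where at least 1 base was covered.

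Trimethylation of lysine 9 on histone H3 (H3K9me3) is a mark of heterochromatin that silences repeats and genes of other lineages and resists reprogramming when a somatic nucleus is transferred into an oocyte. In the blastocyst, the inner cell mass (ICM) gives rise to the embryo proper and keeps POU5F1, NANOG and SOX2, whereas the trophectoderm (TE) gives rise to the placenta. In the TE, TEAD4 with its coactivator YAP1 turns on Cdx2, and CDX2, EOMES, ELF5 and TFAP2C sustain the trophoblast program.

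Native ChIP-seq with ultra-low input was used to profile H3K9me3 in mouse somatic cell nuclear transfer (SCNT) embryos. The 10 peak lists used here hold 1 group each. The donor cells were cumulus cells (CC), which surround the oocyte, and CC and oocytes came from B6D2F1 females. SCNT embryos were activated with strontium in cytochalasin B and collected at 6 and 14 h post activation (hpa) and as 2-cell, 4-cell or 8-cell embryos or morulae, and blastocysts were separated by hand into ICM and TE. The last list came from fertilized zygotes at pronuclear stage 5 (PN5). The labels give a C57BL/6 cross for fertilized embryos, and the study says that its PN5 data came from earlier work, so that type of embryo, strain and source of data cannot be told apart in any comparison with PN5. The labels name no transgene or deletion, and all SCNT groups share the cumulus donor and the activation treatment.

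The labels list 41 H3K9me3 libraries and 33 inputs. The ICM, TE and PN5 groups had 2 precipitated libraries each, 4-cell embryos had 3, CC and 14 hpa embryos had 4, 6 hpa embryos had 5, 2-cell embryos and morulae had 6, and 8-cell embryos had 7. Libraries were pooled and cut to the same number of reads before peaks were called, so no value below has a replicate error and no test between groups was possible. The depth of single libraries is not in these lists, which hold between 120195 and 200342 peaks covering 133.7 to 255.1 Mb. Where a Wilson 95% interval is given it counts each 1 kb as 1 independent unit. Many peaks are longer than that and gather at single loci, so the interval is too narrow. It holds no spread between libraries, embryos or genes and is no test of a difference. The lists hold no expression values, so the labelled cell types could not be checked against marker genes.

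SCNT embryos at 6 hpa carried H3K9me3 peaks at the promoters of 6 of the 10 regulators, namely Sox2, Klf4, Cdx2, Eomes, Tfap2c and Tead4, against 34.4% of all protein-coding promoters. Peaks covered 97.35% of the Sox2 promoter, 68.3% of Klf4, 66.25% of Tfap2c, 63.8% of Eomes, 49% of Cdx2 and 32.4% of Tead4. The promoters of Pou5f1, Nanog, Esrrb and Elf5 had no peak in this list. The 6 genes with a peak were the 6 members with a high-CpG promoter, one that holds a 500-bp window with a CpG ratio of at least 0.75 and a GC content of at least 55%. Of all 10652 high-CpG promoters, 44.7% had a peak at 6 hpa, compared with 30.9% of intermediate and 20.8% of low-CpG promoters. Nanog and Esrrb are intermediate, and Pou5f1 and Elf5 are low-CpG.

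RefSeq sequences of the 250 bases before the start site (GRCm38.p6) matched 8 of the 10 members, and 4 are shown, 2 wholly under a 6 hpa peak and 2 outside all peaks. The 250 bases of the other 4 matched members lay outside the 6 hpa peaks. Their CG counts, given after the sequences, did not follow the peaks in the wider promoter. Those of Sox2 (chr3:34649745-34649994, plus strand) and Klf4 (chr4:55532476-55532725, minus strand) lay wholly under a 6 hpa peak, whereas those of Nanog (chr6:122707239-122707488, plus strand) and Esrrb (chr12:86360867-86361116, plus strand) were not covered in any of the 10 lists. The RefSeq start of Sox2 lies 410 bases upstream of the annotated one. Each line gives 250 bases, 5′ to 3′ on the strand of the gene, with every CG in capitals.
Sox2: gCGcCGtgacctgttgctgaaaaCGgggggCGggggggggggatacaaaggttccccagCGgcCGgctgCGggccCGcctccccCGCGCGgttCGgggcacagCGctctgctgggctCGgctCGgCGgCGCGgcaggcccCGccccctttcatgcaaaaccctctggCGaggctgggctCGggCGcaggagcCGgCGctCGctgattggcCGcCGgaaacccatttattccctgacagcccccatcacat
Klf4: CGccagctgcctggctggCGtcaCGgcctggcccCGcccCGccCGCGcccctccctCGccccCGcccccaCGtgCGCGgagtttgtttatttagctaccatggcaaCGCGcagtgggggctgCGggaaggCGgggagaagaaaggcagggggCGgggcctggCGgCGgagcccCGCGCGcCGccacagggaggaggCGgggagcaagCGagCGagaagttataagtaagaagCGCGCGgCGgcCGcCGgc
Nanog: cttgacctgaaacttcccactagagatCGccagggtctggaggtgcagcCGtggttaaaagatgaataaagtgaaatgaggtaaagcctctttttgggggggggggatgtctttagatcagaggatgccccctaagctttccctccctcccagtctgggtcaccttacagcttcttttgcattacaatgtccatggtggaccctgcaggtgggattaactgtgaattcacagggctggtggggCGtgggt
Esrrb: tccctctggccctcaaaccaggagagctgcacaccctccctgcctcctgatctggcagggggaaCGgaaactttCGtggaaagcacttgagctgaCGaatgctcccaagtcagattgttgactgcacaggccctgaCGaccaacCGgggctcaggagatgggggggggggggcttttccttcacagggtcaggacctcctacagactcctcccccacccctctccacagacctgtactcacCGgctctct
The Sox2 sequence holds 27 CG and the Klf4 sequence 32 CG, against 3 CG for Nanog and 6 CG for Esrrb. In the RefSeq table of 32851 promoters the median was 6 CG. Counts for the other 4 did not follow the promoter peaks, with 13 for Cdx2 and 8 for Eomes, both with a 6 hpa promoter peak, and 8 for Pou5f1 and 2 for Elf5, both without one. The 250 bases of Cdx2 and Eomes themselves lay outside the 6 hpa peaks. For the sequences shown, at least as many CG were found in 8.56% of the table for Sox2, 4.58% for Klf4, 70.97% for Nanog and 50.4% for Esrrb. These counts describe the letters of the sequence on either strand and do not identify a binding site.

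The 6 hpa peaks lay across or just inside the 5′ end. The Sox2 peak ran from -1.62 to 0.95 kb of the annotated start (negative values are upstream) with a fold enrichment over input of 3.29, where fold is the value the peak caller gave to the peak. The Tfap2c peak ran from -0.33 to 2.38 kb with a fold of 3.35, and the Cdx2 peak from 0.02 to 3.02 kb with a fold of 3.43. The Tead4 peak, with a fold of 3.28, was short at 648 bases. Eomes had a gap at its start, with peaks from -1.97 to -0.50 kb (fold 2.45) and from 0.23 to 1.37 kb (fold 3.06). Klf4 had 2 peaks that reached its promoter, from -1.08 to 0.06 kb (fold 2.41) and from 0.70 to 1.02 kb (fold 2.71). Leaving out peaks with a −log10 q below 2 removed the first and lowered the coverage of the promoter to 15.25%. Bases under 6 hpa peaks were also richer in GC, at 53.1% over the member loci against 47.5% of their sequence, and at 50.1% against 43.0% over all loci. The part of base composition in this result was not tested.

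The promoter signal was far less frequent on either side of 6 hpa. No member had a promoter peak in CC (all genes, 12.5%), and 1 had one at 14 hpa (13.1%), namely Sox2. A promoter peak at 6 hpa with none in CC or at 14 hpa was seen for 5 members, against 22.4% of all genes. Later lists held 3 promoters in 2-cell embryos (all genes, 9.96%), which were Sox2, Nanog and Tfap2c, and 2 in 4-cell embryos (8.85%), which were Sox2 and Cdx2. None was seen in 8-cell embryos (9.37%), in morulae (7.31%) or in ICM (6.28%), and none in PN5 (11.5%). TE had 1 (6.32%), a peak inside Cdx2 that reached 0.75% of its promoter. Several of these later peaks were weak. With a −log10 q of at least 2 the count at 14 hpa was 0, that in 2-cell embryos was 1 and that in 4-cell embryos was 0. Counting the start sites of all annotated coding transcripts added Pou5f1 and Esrrb at 6 hpa, for 8 of 10 members, through peaks near internal starts. At Pou5f1 this was a peak of 181 bases with a −log10 q of 1.35. The share of all genes under this wider rule is not given here, so the count of 8 has no background.

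**Figure D1:**
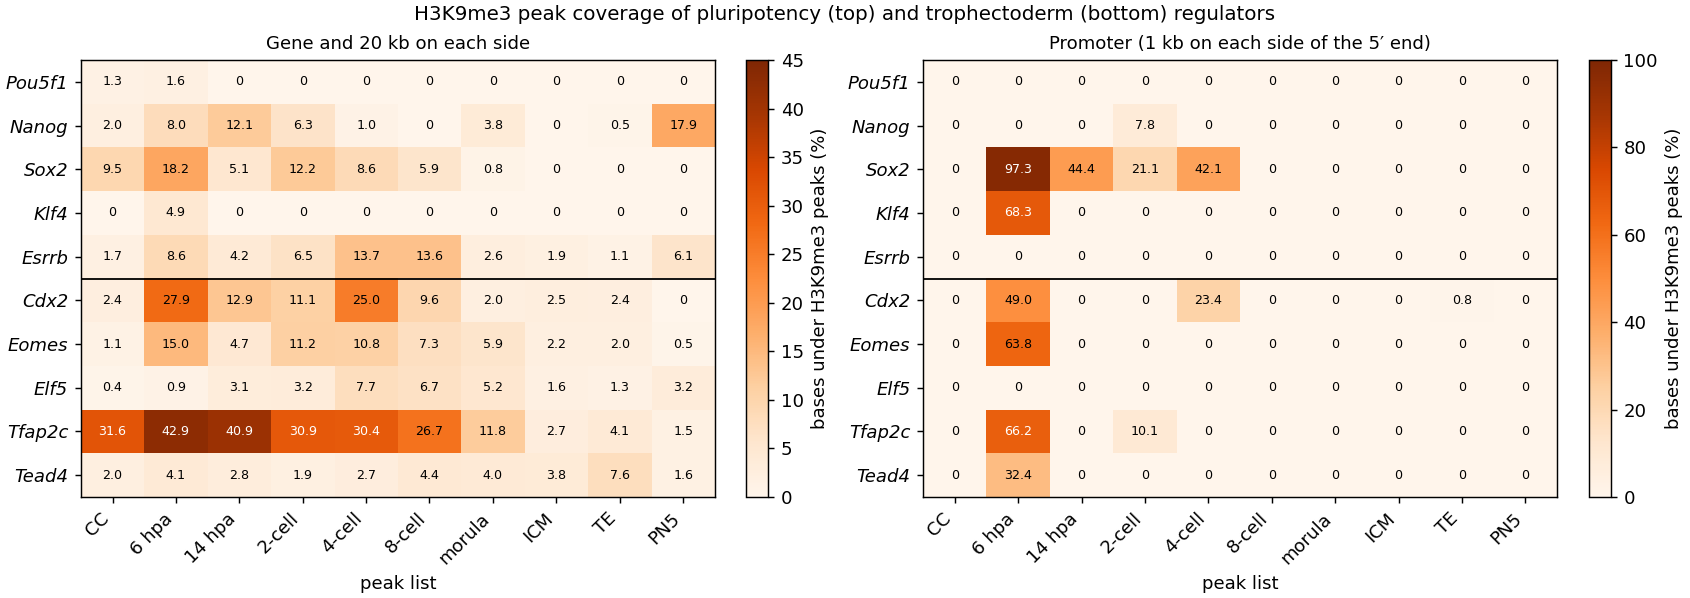
H3K9me3 peak coverage in percent of bases for the 10 regulators (rows, pluripotency above the line and trophectoderm below) in the 10 peak lists (columns), for the gene with 20 kb on each side (left) and the promoter (right), with color scales that differ between panels. The 6 hpa column holds promoter coverage from 32.4% to 97.35% for 6 genes, and the Tfap2c row stays at 26.7% or more from CC to the 8-cell stage.

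Over the 10 loci together, 719048 bases, H3K9me3 peaks covered 3.99% in CC (95% interval, 2.79 to 5.68), while embryos at 6 hpa had 10.9% (8.82 to 13.4). It was 7.001% at 14 hpa, 7.17% in 2-cell embryos, 10.1% in 4-cell embryos and 8.53% in 8-cell embryos. Morulae were at 3.57%, ICM at 1.82% (1.07 to 3.09), TE at 2.28% (1.41 to 3.65) and PN5 at 3.62%. The regulators were most covered from 6 hpa to the 8-cell stage and least in the blastocyst in the lists as deposited. The lower end of this order turned under other settings. At equal covered length CC, at 0.65%, lay below ICM at 1.31% and TE at 1.92%, and 14 hpa, at 2.61%, lay below PN5 at 3.62%. With a −log10 q of at least 2, PN5, at 1.40%, lay below ICM at 1.55% and TE at 1.94%. Over the loci of all protein-coding genes the same quantity moved less, between 4.11% in 2-cell embryos and 7.13% in CC, with 5.14% at 6 hpa, 4.98% in ICM and 4.71% in TE. Medians over genes were likewise highest for the members at 6 hpa, with 8.28% for the members against 3.17% for all genes at 6 hpa, and 1.76% against 2.57% in ICM.

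The trophectoderm regulators were more covered than the pluripotency regulators in each SCNT list and in CC. At 6 hpa their loci were at 13.8% (10.5 to 17.8) and 8.33% (5.95 to 11.5), and in TE at 4.11% and 0.64%. In PN5 the order of the pooled bases was the other way, with 1.57% for trophectoderm and 5.46% for pluripotency regulators. All PN5 peaks at pluripotency loci lay at Nanog and Esrrb. The PN5 median over genes was 1.51% for trophectoderm and 0% for pluripotency regulators. From CC to the 8-cell stage most of this lead lay at Tfap2c, and without it the pooled order turned in CC and in 2-cell and 8-cell embryos. The 4 remaining trophectoderm loci were at 1.49% in CC, below the 2.34% of the pluripotency regulators, and at 8.83%, close to the 8.33% of those regulators, in 6 hpa embryos. They were at 5.26% against 5.57% in 2-cell embryos and at 6.36% against 7.85% in 8-cell embryos. The long Esrrb locus held 13046 of the 21141 covered pluripotency bases in 2-cell embryos and 27364 of 29826 in 8-cell embryos. Medians of the 4 loci stayed above those of the pluripotency regulators in these lists, at 7.15% against 6.33% and 6.98% against 0%. The medians turned in CC, at 1.56% against 1.68%, and at 14 hpa, at 3.89% against 4.22%. In the blastocyst the order did not need Tfap2c, with 2.76% against 0.99% in ICM and 4.12% against 0.64% in TE. Much of this coverage lay at Tead4, with 4447 of the 8005 covered bases of the 4 loci in ICM and 8838 of 11959 in TE. Medians of the 4 loci were 2.39% in ICM and 2.21% in TE, against 0% for the pluripotency regulators in both. All 9 loci other than Tfap2c together were at 1.97% in CC, 8.55% at 6 hpa, 4.52% at 14 hpa, 5.43% in 2-cell and 8.58% in 4-cell embryos. The rank of CC depends on list length. CC and 14 hpa peaks cover more of the genome than the others, and the equal lengths above were reached by keeping the strongest peaks of each list.

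Some members had no peak near them in a given list. Members with no peak in their locus numbered 1 in CC (all genes, 15.7%), 0 at 6 hpa (7.36%), 2 at 14 hpa (17.3%), 2 in 2-cell embryos (34.3%), 2 in 4-cell embryos (30.9%) and 3 in 8-cell embryos (28.7%). There were 2 in morulae (23.4%), 4 in ICM (19.7%), 3 in TE (19.1%) and 4 in PN5 (12.8%). In ICM all 4 were pluripotency regulators, Pou5f1, Nanog, Sox2 and Klf4. With 10 members, most of these counts lie near the share of all genes. A locus with no peak held no enrichment above the caller's threshold, and H3K9me3 below that threshold would not appear in these lists.

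Pou5f1 encodes the POU factor OCT4, which is required for the ICM. Its locus (chr17:35486018-35530772) was covered over 1.33% in CC and 1.64% at 6 hpa and had no peak in the other 8 lists. The CC peak lay from -18.4 to -17.8 kb, between genes. At 6 hpa a peak of 181 bases with a fold of 2.36 touched an exon inside the gene, where the antisense transcript Gm19553 is also annotated.

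Klf4, a Krüppel-like factor able to promote reprogramming, had the narrowest pattern in time. Its locus (chr4:55507143-55552466) held 3 peaks at 6 hpa, all of them at the gene itself, which covered 4.90% of the locus, and no peak in any other list. Peaks in the 6 hpa list alone were found at 0.565% of all protein-coding loci.

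Sox2 encodes an HMG-box partner of OCT4 and lies within the long noncoding gene Sox2ot. The locus (chr3:34630405-34672461) was covered over 9.45% in CC, 18.2% at 6 hpa, 5.12% at 14 hpa, 12.2% in 2-cell embryos, 8.58% in 4-cell embryos, 5.85% in 8-cell embryos and 0.78% in morulae. ICM, TE and PN5 had none. At equal covered length Sox2 was at 0% in CC and at 14 hpa. With a −log10 q of at least 2 it was at 0.75% at 14 hpa and 0% in 8-cell embryos. Coverage of its promoter was 44.35% at 14 hpa, 21.05% in 2-cell embryos and 42.15% in 4-cell embryos, with folds of 2.29, 2.40 and 2.70. Sox2 was the only member with a promoter peak in 4 lists, and those 3 later peaks had −log10 q values below 2. A stretch of 437 bases from 13.3 to 13.8 kb, in Sox2ot and Gm42693, was covered in each of the 5 lists from CC to the 4-cell stage, and no part of it is repeat-masked.

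Nanog encodes a homeobox factor that maintains pluripotency. Coverage of its locus (chr6:122687489-122734633) was 2.03% in CC, 7.95% at 6 hpa, 12.1% at 14 hpa, 6.33% in 2-cell embryos, 1.03% in 4-cell embryos, 0% in 8-cell embryos, 3.77% in morulae, 0% in ICM, 0.52% in TE and 17.9% in PN5. PN5 had the highest value, but this order turned under other settings. With a −log10 q of at least 2, PN5 was at 9.85% and 14 hpa at 12.1%. With 10 kb flanks, PN5 was at 0.85%, 6 hpa at 7.42% and morulae at 6.55%. The covered block lay upstream, from -16.1 to -11.7 kb in PN5 with a fold of 3.18, from -14.98 to -11.21 kb at 14 hpa with a fold of 3.49 and from -14.5 to -11.8 kb in 2-cell embryos. Part of the neighbouring sequence is annotated as the processed pseudogenes Gm10420 and Gm10224. A second position just upstream of the promoter, from -1.81 to -1.33 kb in 4-cell embryos, was also under a peak in morulae and in TE.

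Esrrb, an orphan nuclear receptor gene of the pluripotency network, is the longest member at 160512 bases, and its peaks were spread over the introns. Coverage of its locus (chr12:86341117-86541628) was 1.68% in CC, 8.62% at 6 hpa, 4.22% at 14 hpa, 6.51% in 2-cell embryos, 13.7% in 4-cell embryos, 13.6% in 8-cell embryos, 2.59% in morulae, 1.87% in ICM, 1.08% in TE and 6.13% in PN5. The 4-cell and 8-cell lists stood above the rest. The highest fold of the 405 peaks at member loci, 6.21, was a peak of 164 bases downstream of Esrrb at 163.1 kb in the 8-cell list. Its bases are wholly repeat-masked, and the morula peak at this position had a fold of 2.98. The median fold over these 405 peaks was 2.83.

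Cdx2 encodes the caudal homeobox factor that specifies trophectoderm. Peaks covered the locus (chr5:147280805-147327270) over 2.44% in CC, 27.9% at 6 hpa, 12.9% at 14 hpa, 11.1% in 2-cell embryos, 25.04% in 4-cell embryos, 9.62% in 8-cell embryos, 2.00% in morulae, 2.53% in ICM, 2.42% in TE and 0% in PN5. The 6 hpa and 4-cell values were the highest, and in both the gene body was covered as well, over 48.7% and 33.2%. Some of the other values depended on the setting. At equal covered length Cdx2 was at 0% in CC and at 14 hpa. With 10 kb flanks it was at 0% in 2-cell embryos and 0.27% in 8-cell embryos. Downstream of the gene a block from 15.8 to 21.9 kb in 4-cell embryos had counterparts in the 6 hpa, 14 hpa, 2-cell and 8-cell lists. Short peaks inside this block were also found in CC (202 and 258 bases), morulae (608 bases), ICM (218 bases) and TE (237 bases). Inside the gene, TE had a peak from 0.99 to 1.40 kb with a fold of 3.64, and ICM had one from 4.595 to 5.112 kb with a fold of 2.90.

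Eomes encodes a T-box factor needed for trophoblast stem cells. Coverage of its locus (chr9:118458212-118506132) was 1.14% in CC, 15.01% at 6 hpa, 4.66% at 14 hpa, 11.2% in 2-cell embryos, 10.8% in 4-cell embryos, 7.26% in 8-cell embryos, 5.88% in morulae, 2.24% in ICM, 2.00% in TE and 0.52% in PN5. Only the 6 hpa list reached the gene body, over 24.3%. In the other lists the peaks lay outside the gene, mostly on its downstream side.

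Elf5 encodes an ETS factor of the trophoblast whose promoter is known to be methylated in embryonic stem cells. Its promoter had no H3K9me3 peak in any list. Its locus (chr2:103391688-103470989) was covered over 0.43% in CC, 0.88% at 6 hpa, 3.12% at 14 hpa, 3.24% in 2-cell embryos, 7.71% in 4-cell embryos, 6.71% in 8-cell embryos, 5.22% in morulae, 1.65% in ICM, 1.31% in TE and 3.19% in PN5. It was the member with the lowest coverage at 6 hpa. Most of its peaks lay upstream, around -17 and -8 kb.

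Tfap2c encodes an AP-2 factor active in the trophoblast and the germ line, and its locus (chr2:172529593-172578622) was the most covered of the 10 in each list from CC to the morula. Coverage was 31.6% in CC, 42.9% at 6 hpa, 40.9% at 14 hpa, 30.9% in 2-cell embryos, 30.4% in 4-cell embryos, 26.7% in 8-cell embryos, 11.8% in morulae, 2.73% in ICM, 4.06% in TE and 1.51% in PN5. Its coverage was higher than that of 92.9% to 98.8% of protein-coding genes in the 6 lists from CC to the 8-cell stage, then of 51.4% in ICM, 62.3% in TE and 27.2% in PN5. The peaks flanked the gene and left its body largely free outside the 6 hpa list. The longest peak, of 13392 bases, ran from 13.9 to 27.3 kb at 14 hpa with a fold of 2.74. The peaks of CC and 14 hpa here were of modest rank within their lists, since at equal covered length Tfap2c was at 1.86% in CC and 7.85% at 14 hpa, against 41.5% at 6 hpa and 29.7% in 2-cell embryos. Its rank among the members depends on the flanks. With 10 kb flanks it was at 32.9% at 6 hpa, below Cdx2 at 34.2%, at 15.4% in 2-cell embryos, below Eomes at 18.7%, and at 10.9% in 4-cell embryos, below Eomes at 17.1%, Cdx2 at 16.8% and Esrrb at 11.5%. In 8-cell embryos it was at 7.69%, below Esrrb at 11.7% and Eomes at 10.4%, and in morulae at 4.31%, below Eomes at 10.1%. At equal covered length it was at 7.85% at 14 hpa, below Nanog at 12.1%.

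Tead4 encodes the TEA-domain factor upstream of Cdx2. The values for its locus (chr6:128204288-128320823) were 1.97% in CC, 4.09% at 6 hpa, 2.82% at 14 hpa, 1.86% in 2-cell embryos, 2.66% in 4-cell embryos, 4.45% in 8-cell embryos, 4.02% in morulae, 3.82% in ICM, 7.58% in TE and 1.55% in PN5. It was the member for which TE had the highest value of all lists. The 20 kb upstream of Tead4 were covered over 30.3% in TE and 14.1% in ICM. They were at 6.60% in CC, 8.085% at 6 hpa and 0.865% in 2-cell embryos. The 14 hpa, 4-cell, 8-cell, morula and PN5 lists had 0% there.

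The peaks of the donor cells were compared with those of the embryos base by base. Of the 28684 bases under CC peaks at the 10 loci, 64.4% were also under a peak at 6 hpa, 60.9% at 14 hpa, 45.7% in 2-cell embryos, 39.7% in 4-cell embryos, 32.8% in 8-cell embryos, 21.8% in morulae, 12.1% in ICM, 16.4% in TE and 5.97% in PN5. The share was thus lower at each later stage up to the morula. Tfap2c held 15469 of these bases and largely set these values. At Tfap2c alone the shares were 86.4% at 6 hpa, 91.1% at 14 hpa, 55.4% in 2-cell embryos, 27.8% in morulae, 6.54% in ICM and 11.3% in TE. Over the other 9 loci they were 38.6% at 6 hpa, 25.6% at 14 hpa, 34.4% in 2-cell embryos, 14.9% in morulae, 18.5% in ICM and 22.4% in TE. Over all protein-coding loci they were 37.5%, 53.0%, 29.5%, 37.0%, 35.3% and 33.0% in the same lists.

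In the other direction, most of what the embryos carried at these loci was not under a CC peak. Of the bases covered at 6 hpa, 23.6% were under a CC peak over the 10 loci and 8.91% without Tfap2c, compared with 51.9% over all protein-coding loci. At 14 hpa the shares were 34.7%, 11.2% and 54.7%. At Tfap2c itself 63.5% of the bases covered at 6 hpa and 70.2% at 14 hpa were under CC peaks. Klf4 had no CC peak at all.

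**Figure D2:**
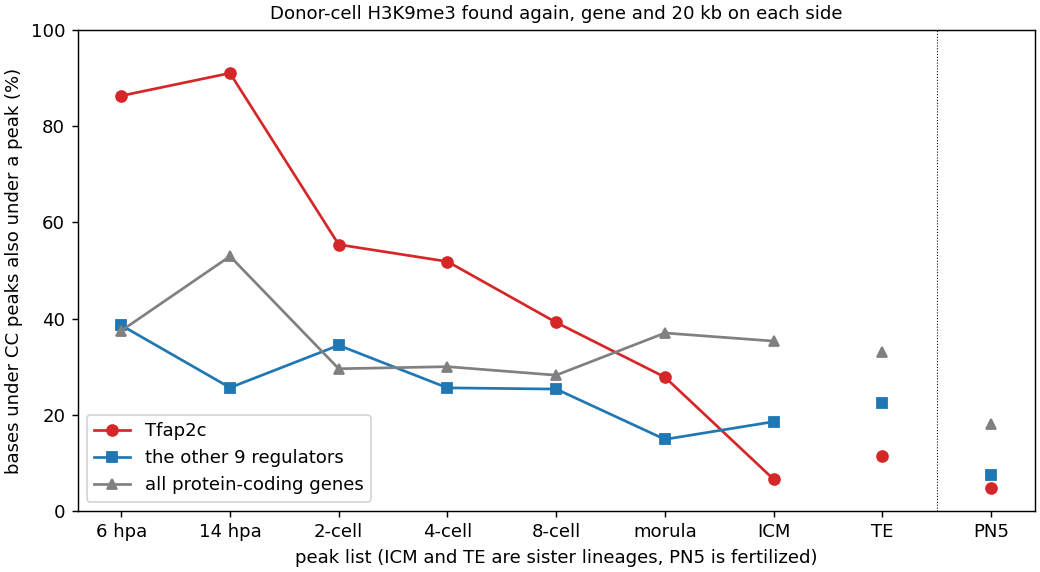
Percent of the bases under CC peaks that were also under a peak in each later list, for the Tfap2c locus (red circles), the other 9 regulators together (blue squares) and all protein-coding genes (grey triangles), each over the gene and 20 kb on each side. Tfap2c starts at 86.4% at 6 hpa and is at 6.54% in ICM, whereas all protein-coding genes stay between 28.2% and 53.0% through the SCNT lists.

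ICM and TE were then compared to ask whether the regulators of one lineage carried more H3K9me3 in the other. No member reached a difference of 5 percentage points of its locus in either direction, against 3.35% of all genes with ICM higher and 0.775% with TE higher. Only Tead4 was covered over more than 5% in either lineage, so the other members could not have reached this difference. The absence of such differences therefore does not answer the question. Pou5f1, Sox2 and Klf4 had no peak in either lineage, as did 15.6% of all genes. Nanog had no peak in ICM and a single peak of 247 bases in TE, with a fold of 2.09. This fold was the lowest of the 405 peaks at member loci, and the −log10 q was 1.78. The peak was lost with a −log10 q of at least 2 and at equal covered length. Cdx2 was at 2.53% in ICM and 2.42% in TE, Eomes at 2.24% and 2.00%, Elf5 at 1.65% and 1.31%, and Esrrb at 1.87% and 1.08%. Tfap2c was at 2.73% in ICM and 4.06% in TE. The one larger gap was at Tead4, where TE was 3.77 points higher (3.82% in ICM and 7.58% in TE), and 1.86% of genes differed by at least as much in that direction. The median absolute difference over all genes was 0.59 points.

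Where both lineages had peaks at these loci the positions only partly coincided. ICM peaks covered 13096 bases and TE peaks 16366 bases, and 8516 bases were shared, which is 65.03% of the ICM bases, 52.0% of the TE bases and 40.7% of the bases of either. The last share was 51.4% over all protein-coding loci. At Eomes every TE base was also under the ICM peak. At Cdx2, 24.9% of the bases of either lineage were shared, and the peak in the gene lay at different positions in the 2 lineages. With 2 precipitated libraries pooled in each lineage, the spread between embryos behind these differences is not known.

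**Figure D3:**
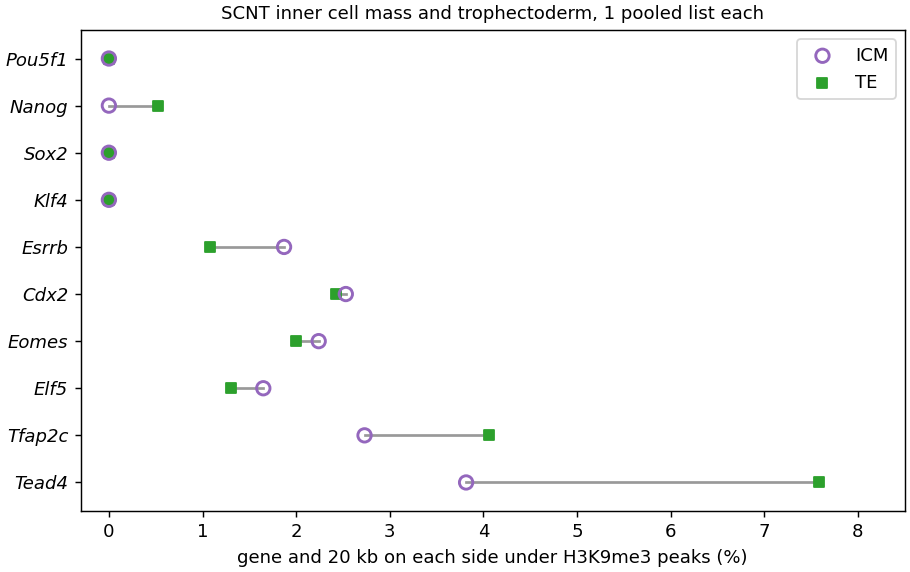
Percent of each locus (gene and 20 kb on each side) under H3K9me3 peaks in SCNT ICM (open circles) and TE (filled squares), 1 pooled list for each, with a grey line joining the values of a gene. Pou5f1, Sox2 and Klf4 are at 0 in both, and Tead4 has the widest gap, 3.82% against 7.58%.

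Some positions outside the genes were marked in nearly every list. A base covered in all 10 lists was found at 2 members, Elf5 and Tead4, against 23.9% of all genes. The Elf5 stretch of 297 bases (chr2:103394849-103395145) lies between genes, from -16.8 to -16.5 kb, and is 77.8% repeat-masked. The Tead4 stretch of 234 bases (chr6:128216310-128216543) lies between genes beyond the 3′ end and is wholly repeat-masked. Stretches covered in 9 lists, all but PN5, were found downstream of Eomes (460 bases, 37.4% repeat-masked) and upstream of Tfap2c (701 bases, 13.6% repeat-masked). A Cdx2 stretch of 198 bases, from 17.7 to 17.9 kb and wholly repeat-masked, was covered in 8 lists, all but the morula and PN5. A stretch of 19 bases inside Esrrb, at 153.4 kb and 78.9% repeat-masked, was also covered in 8 lists, all but ICM and TE. The share of all genes with a stretch covered in 9 or in 8 lists is not given here. PN5 is also the list that covers the least of the genome, at 133.7 Mb. How reads that match several repeat copies were treated is not given in the sources used here, and its part in these stretches was not tested.

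The bases covered in CC and in all 8 SCNT lists fell into 5 stretches at 4 members. The share of all genes under this rule is not given here. Under the stricter rule of all 10 lists it was 23.9%, so the 4 members are not shown to differ from other genes. They lie upstream of Elf5, downstream of Tead4 and of Eomes, and upstream of Tfap2c at 2 positions. The second Tfap2c stretch (chr2:172536275-172536474, 200 bases from -13.3 to -13.1 kb) was not covered in PN5 and is not printed. One stretch for each gene is shown, the longest covered in the most lists. They are given 5′ to 3′ on the plus strand of GRCm38.p6 with every CG in capitals. For Eomes (chr9:118494243-118494542) and Tfap2c (chr2:172539972-172540271) the middle 300 bases are printed.
Elf5 upstream: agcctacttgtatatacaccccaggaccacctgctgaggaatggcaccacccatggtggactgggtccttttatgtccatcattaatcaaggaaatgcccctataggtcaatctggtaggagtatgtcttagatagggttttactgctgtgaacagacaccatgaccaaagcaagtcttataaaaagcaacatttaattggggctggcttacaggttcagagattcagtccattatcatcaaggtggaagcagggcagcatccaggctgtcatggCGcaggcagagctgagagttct
Tead4 downstream: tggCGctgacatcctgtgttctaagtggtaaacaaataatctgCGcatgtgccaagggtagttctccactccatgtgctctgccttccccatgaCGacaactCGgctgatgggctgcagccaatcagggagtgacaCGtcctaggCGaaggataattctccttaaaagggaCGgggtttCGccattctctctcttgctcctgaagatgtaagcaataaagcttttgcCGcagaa
Eomes downstream: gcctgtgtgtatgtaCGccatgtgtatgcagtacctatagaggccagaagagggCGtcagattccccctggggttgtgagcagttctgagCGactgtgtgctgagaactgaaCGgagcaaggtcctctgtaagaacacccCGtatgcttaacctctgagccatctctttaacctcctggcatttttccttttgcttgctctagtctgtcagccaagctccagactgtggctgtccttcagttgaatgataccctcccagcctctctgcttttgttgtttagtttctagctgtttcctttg
Tfap2c upstream: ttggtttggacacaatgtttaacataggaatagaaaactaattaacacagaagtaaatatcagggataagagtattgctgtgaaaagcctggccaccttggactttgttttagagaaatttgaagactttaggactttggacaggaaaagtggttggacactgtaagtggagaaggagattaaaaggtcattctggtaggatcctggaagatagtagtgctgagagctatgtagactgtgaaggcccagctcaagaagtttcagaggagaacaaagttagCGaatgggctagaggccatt
The Tead4 stretch holds 9 CG, the Eomes bases 5 CG, and the Elf5 and Tfap2c bases 1 CG each. Folds at the Eomes stretch were 4.58 in CC, 2.96 at 6 hpa, 4.38 in ICM and 4.11 in TE, and those at the Elf5 stretch ran from 2.45 at 6 hpa to 3.74 in morulae.

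Wider lists of lineage genes were set beside the members. Of all protein-coding promoters, 12.5% had a peak in CC and 34.4% at 6 hpa, the list with the most. Of 20 further genes of the pluripotency network, 4 had a promoter peak in CC and 10 had one at 6 hpa. At 14 hpa the count was 1, and the morula, ICM and TE lists had 0 each. Of 20 further trophectoderm and placenta genes, 18 had one at 6 hpa, 4 in CC, 4 at 14 hpa, 2 in ICM and 0 in TE. Of 8 primitive endoderm genes, 5 had one at 6 hpa, 1 in CC and 0 at 14 hpa. The 6 hpa list held the most marked promoters in all 3 sets, as it did over all genes. No gene of these sets differed by 5 points between ICM and TE, but most were covered over less than 5% in both and could not do so.

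Genes of these sets were named by highest locus coverage in any list. In the pluripotency network Zfp42, which encodes REX1, was at 24.97% at 6 hpa, 15.9% in ICM and 16.0% in TE. Those of the trophectoderm and placenta set were Tpbpa, a spongiotrophoblast marker, and Ascl2, a basic helix-loop-helix gene of the placenta. Tpbpa was at 64.8% in CC, 14.3% in ICM and 17.9% in TE. Ascl2 was at 44.9% in 8-cell embryos, 14.8% in ICM and 13.0% in TE. Those of primitive endoderm were Foxa2 and Sox17. Foxa2 was at 21.1% in 8-cell embryos, 3.46% in ICM and 2.84% in TE. Sox17 was at 10.97% at 6 hpa, 0% in ICM and 1.35% in TE.

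Tfap2c had the highest locus coverage of the members, and 3 genes were most like it by the mean absolute difference in locus coverage over the 10 lists, with genes within 50 kb set aside. They were Mc3r, at 4.43 points, Irx2, at 5.09 points, and Plpp4, at 5.25 points. Mc3r lies on the same chromosome, 298.5 kb away. Its coverage was 17.1% in CC, 42.2% at 6 hpa, 45.1% at 14 hpa, 3.78% in ICM and 4.67% in TE.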

How the data were processed

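H3K9me3 was profiled by ULI-NChIP-seq with micrococcal nuclease. Reads were trimmed by the authors with cutadapt 1.16, aligned to mm10 with BWA mem, merged with SAMtools and, with Picard, freed of duplicates and cut to the same number of reads per group. Broad peaks were called with MACS2 over input, and its version and threshold are not given in the sources used here. The deposited lists, 1 for each group with replicates pooled, hold a fold enrichment, which is a ratio over input, and −log10 p and −log10 q values from the authors' peak caller. The lowest −log10 q was 1.30 to 1.52.

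Overlapping peaks of a list were merged (Python 3.11.15, numpy 2.4.6), and covered bases were counted in GENCODE M21 genes on GRCm38.p6, over 21 chromosomes. Counting was tested on simulated intervals. Low-CpG promoters had no 500-bp window with a CpG ratio of 0.48 or more, windows moving in steps of 10 bases. Soft-masked bases are termed repeat-masked. All 10 members are named, with the 2 genes of highest coverage in each wider list and the 3 genes most like the most covered member. One result under this rule is not reported here. The members and lists were chosen with earlier results of these data known. Alternatives were a −log10 q of at least 2, lists trimmed to 133.7 Mb by −log10 q, joining of peaks up to 1 kb apart, 10 kb flanks, other promoter rules and, chosen after seeing the data, all coding transcript starts. No test was run, because each group is 1 pooled list.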

Additional observations from a re-analysis of the deposited data

How the results depend on the processing

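Of the values that answer the main questions, 90 of the alternatives stayed within the interval or within 1.5 times the count, and 18 moved. When peaks needed a −log10 q of 2 or more, pooled coverage was 7.53% at 6 hpa and 1.40% in PN5, and promoter peaks numbered 0 at 14 hpa, 1 in 2-cell embryos and 0 in 4-cell embryos. With lists of equal covered length, coverage was 0.65% in CC and 2.61% at 14 hpa, and promoter peaks numbered 0 at 14 hpa and 0 in 4-cell embryos. With 10 kb flanks, coverage was 2.42% in CC, 5.05% at 14 hpa, 4.88% in 2-cell embryos, 7.77% in 4-cell embryos and 6.62% in 8-cell embryos. Asking for 50% of the promoter or of a peak gave 0 promoters in TE, and 500 bases on each side gave 0 in TE and 1 in 4-cell embryos. Starts of all coding transcripts, chosen after seeing the data, gave 1 promoter in CC, that of Tfap2c, with no share of all genes beside it. The count of 6 promoters at 6 hpa stayed within 1.5 times under every alternative run. The share of bases common to ICM and TE ran from 35.8% to 51.3%, and that of CC bases covered at 14 hpa from 47.8% to 67.04%. Of the values of single genes, 382 stayed within their interval and 57 did not. No paired analysis was possible because each group is a single list made from its pooled libraries, and leaving out a library was likewise not possible. Apart from the alternatives' own construction (fewer or shorter peaks, other windows), the cause was not tested.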
